A study of Homo sapiens with 2 samples.

Results

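The 10 genes described here encode enzymes of the urea cycle, of amino acid breakdown, of polyamine synthesis, and of pyruvate and sugar phosphate metabolism, and were followed in H1299 cells given a miR-138 mimic. They are CPS1, ASS1, HPD, KYNU, BCAT1, CDO1, ODC1, PDK4, PDHA1 and PGM1. Each was taken from the deposited table by the platform's annotation, and each had 1 transcript cluster (the probes assigned to 1 gene), so they make up 10 of the 243 clusters in that table. H1299 is a human line derived from a non-small cell lung carcinoma. 1 array came from cells transfected with a miR-138 mimic and 1 from cells transfected with a negative control (NC) mimic, both after 48 h. Both groups share the line, the serum medium, the lipofection and the array type, so the labels set them apart by the mimic alone, and they describe neither an untransfected culture nor a further culture of either group.

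The smallest difference in the table was 1.0 on the log2 scale, or 2-fold, in either direction. The 10 genes are therefore enzymes that had already passed that limit, and they were selected on these same differences, with results of the 2 arrays known: the values below describe these 2 arrays, with no test and no replicate error. The deposited values carry 2 decimals, so rounding alone can move a difference by at most 0.01. ODC1, at 1.03, lay nearest to the limit, and genes just outside the limit were not analysed here. Differences are miR-138 mimic minus NC mimic throughout, and "higher" and "lower" refer to the miR-138 array against the NC array. A cluster's signal also depends on its probes, so levels of different genes are set side by side only to mark dim clusters and to name near neighbours, and show nothing about which gene is expressed more.

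The urea cycle turns toxic ammonia into urea and runs in full mainly in the liver, although single enzymes of it are found in many tumours, where they feed arginine and pyrimidine synthesis. Amino acid breakdown feeds carbon into central metabolism and releases nitrogen, and ornithine from the urea cycle is the starting point of the polyamines. Pyruvate, the end product of glycolysis, enters mitochondria and is converted to acetyl-CoA by the pyruvate dehydrogenase complex, which its dedicated kinases switch off by phosphorylation.

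A mimic delivers a mature microRNA, which pairs with transcripts mainly through its seed (bases 2 to 8). The mature sequence of the 5p strand is shown because it is the strand usually meant by miR-138. The labels give the name without the strand. The sequence is RefSeq's (GRCh38.p14), in which the genes MIR138-1 and MIR138-2 both encode it, and the capitals mark the seed.
hsa-miR-138-5p: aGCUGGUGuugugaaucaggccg
The cluster of MIR138-1 read 14.07 on the miR-138 array and 6.13 on the NC array, the direction that the labels give. Transcript sequences of the enzymes were not used here, so whether any of the 10 carries a match to the seed was not examined.

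Of the 10 genes, 7 were lower and 3 were higher with the miR-138 mimic. The lower share was 70% for these genes and 57.2% for the whole table (139 of 243), and the higher share was 30% against 42.8%. Their median difference was -1.09 and that of all 243 clusters was -1.05. Neither figure sets the enzymes apart from the table, since a choice of 10 with these results in view fixes its own count. The 7 lower genes had a median of -1.45, beside -1.24 for all lower clusters, and the 3 higher genes a median of 1.07, beside 1.23 for all higher clusters. Without the lowest 25% of mean levels, 6 of the 8 genes left were lower and 2 higher, beside 62.1% and 37.9% of the 182 clusters left. A size of no more than 1.2 was found for 6 of the 10 genes (60%) and for 111 of the 243 clusters (45.7%).

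**Figure D1:**
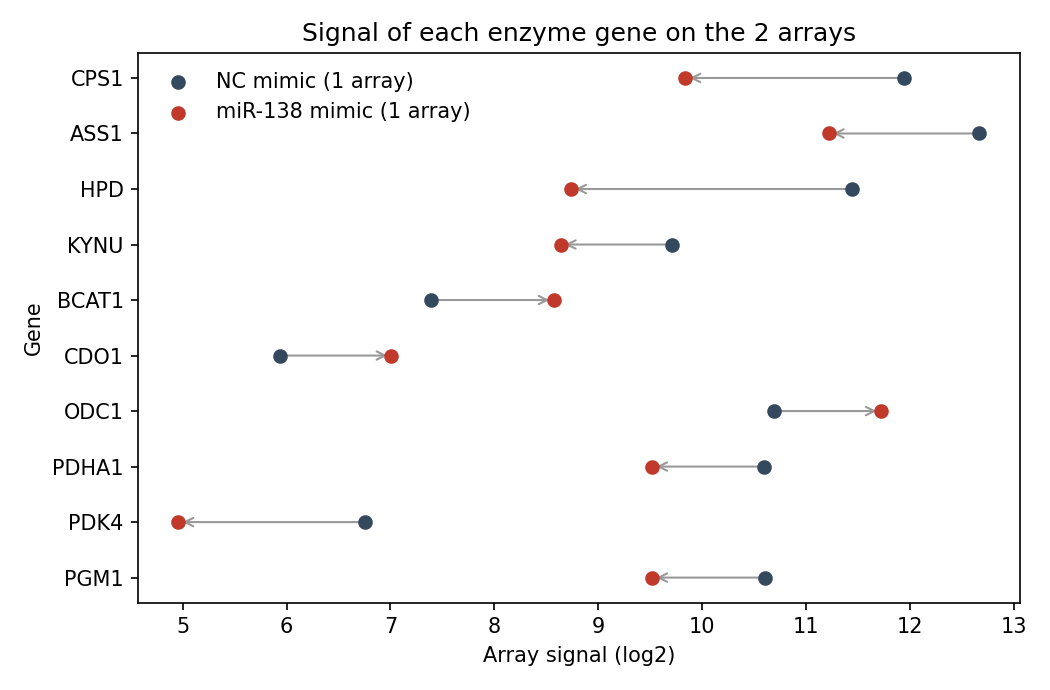
Array signal (log2, horizontal axis) of the 10 enzyme genes (vertical axis), with 1 point for the NC mimic array, 1 for the miR-138 mimic array and an arrow from the former to the latter. The arrows of CPS1, ASS1, HPD, KYNU, PDHA1, PDK4 and PGM1 point to lower signal, and those of BCAT1, CDO1 and ODC1 to higher signal.

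Both urea cycle genes were lower, beside 57.2% of the whole table. CPS1 encodes the mitochondrial carbamoyl phosphate synthetase, which fixes ammonia and bicarbonate in the first step of the cycle. It read 9.84 (log2) with the miR-138 mimic and 11.94 with the NC mimic and so differed by -2.10. On the linear scale the miR-138 signal was 23.3% of the NC signal, a 4.29-fold reduction. ASS1 encodes argininosuccinate synthetase, the cytosolic enzyme that joins citrulline to aspartate. It read 11.22 with the miR-138 mimic and 12.67 with the NC mimic and differed by -1.45, or 2.73-fold. The reduction on the log2 scale was thus 0.65 larger for CPS1 than for ASS1, a gap that no replicate measured. Of 16 symbols listed for the urea cycle and its branches, which also included the transporters, the arginases and the nitric oxide synthases, these 2 were in the table. The other symbols, among them OTC and ASL, the enzymes that stand between CPS1 and arginine with ASS1, were not analysed here.

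The 4 genes of amino acid breakdown were evenly split, with 2 lower and 2 higher, beside 57.2% and 42.8% of the whole table. HPD encodes 4-hydroxyphenylpyruvate dioxygenase, which makes homogentisate in the breakdown of tyrosine. Its signal was 8.74 on the miR-138 array against 11.44 on the NC array. The difference of -2.70, a 6.50-fold reduction to 15.4% of the NC signal, was the second most negative of the 243. KYNU encodes kynureninase, which cleaves kynurenine and 3-hydroxykynurenine in tryptophan breakdown. It read 8.64 against 9.71 and differed by -1.07, or 2.10-fold, so it passed the limit of the table narrowly. HPD and KYNU therefore shared a direction but not a size.

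BCAT1 and CDO1 lay on the other side. BCAT1 encodes the cytosolic branched-chain aminotransferase, which moves the amino group of leucine, isoleucine and valine to 2-oxoglutarate. Its signal was 8.57 with the miR-138 mimic and 7.39 with the NC mimic, higher by 1.18 or 2.27-fold. CDO1 encodes cysteine dioxygenase, which oxidises cysteine to cysteine sulfinate on the way to taurine. It read 7.01 against 5.94 and was higher by 1.07, or 2.10-fold. CDO1 was in the lowest 25% of mean levels in the table (below 6.57), and the files used here hold no detection calls. The lists around these 4 genes held 10 symbols for phenylalanine and tyrosine, 13 for tryptophan, 16 for branched-chain amino acids and 14 for cysteine and taurine, and each had its 1 enzyme named above in the table. A further list of 23 symbols for serine, glycine, glutamine, proline and other amino acids had 0 in it.

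ODC1 was higher. It encodes ornithine decarboxylase, the short-lived enzyme that turns ornithine into putrescine and limits polyamine synthesis. The signal was 11.72 with the miR-138 mimic and 10.69 with the NC mimic, higher by 1.03 or 2.04-fold. Of 13 polyamine symbols, which included the antizymes and the spermidine and spermine synthases, ODC1 was the 1 in the table. The 2 urea cycle genes and ODC1, the gene nearest to the limit of the table, thus differed in opposite directions. Ornithine was not measured.

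The 3 genes that handle pyruvate and sugar phosphates were all lower, beside 57.2% of the whole table. PDHA1 encodes the alpha subunit of the decarboxylating component of pyruvate dehydrogenase, the subunit that the kinases phosphorylate. It read 9.52 on the miR-138 array and 10.60 on the NC array and differed by -1.08, or 2.11-fold. PDK4 encodes one of those kinases. Its signal was 4.96 against 6.76, a difference of -1.80 or 3.48-fold, to 28.7% of the NC signal. PDK4, like CDO1, was in the lowest 25% of mean levels. An enzyme subunit and an inhibitor of that enzyme were therefore both lower. The larger difference of the inhibitor came from a dim cluster and no replicate measured the gap, and enzyme activity was not measured.

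PGM1 encodes phosphoglucomutase, which interconverts glucose 1-phosphate and glucose 6-phosphate between glycogen and glycolysis. It read 9.52 with the miR-138 mimic and 10.61 with the NC mimic and differed by -1.09, or 2.13-fold, a difference close to that of PDHA1. Of 16 symbols around pyruvate dehydrogenase, 3 were in the table: PDHA1, PDK4 and PC. All 3 were lower, beside 57.2% of the whole table, and PDHA1 and PDK4 had been selected on these differences. PC encodes pyruvate carboxylase, which takes pyruvate to oxaloacetate, and it differed by -1.11 (6.96 against 8.07). Of 26 sugar phosphate and glycogen symbols PGM1 was the 1 in the table. Of 27 glycolysis symbols, ENO3, an enolase known best from muscle, was the 1 in the table, at -1.14 (6.46 against 7.60). Over all 10 pathway lists, 12 of 174 symbols were in the table, 9 of them lower and 3 higher, beside 57.2% and 42.8% of the whole table. All but PC and ENO3 were genes selected on these differences, so the counts largely repeat the split of the 10 genes. What share of all genes on the array reached the table was not computed here.

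**Figure D2:**
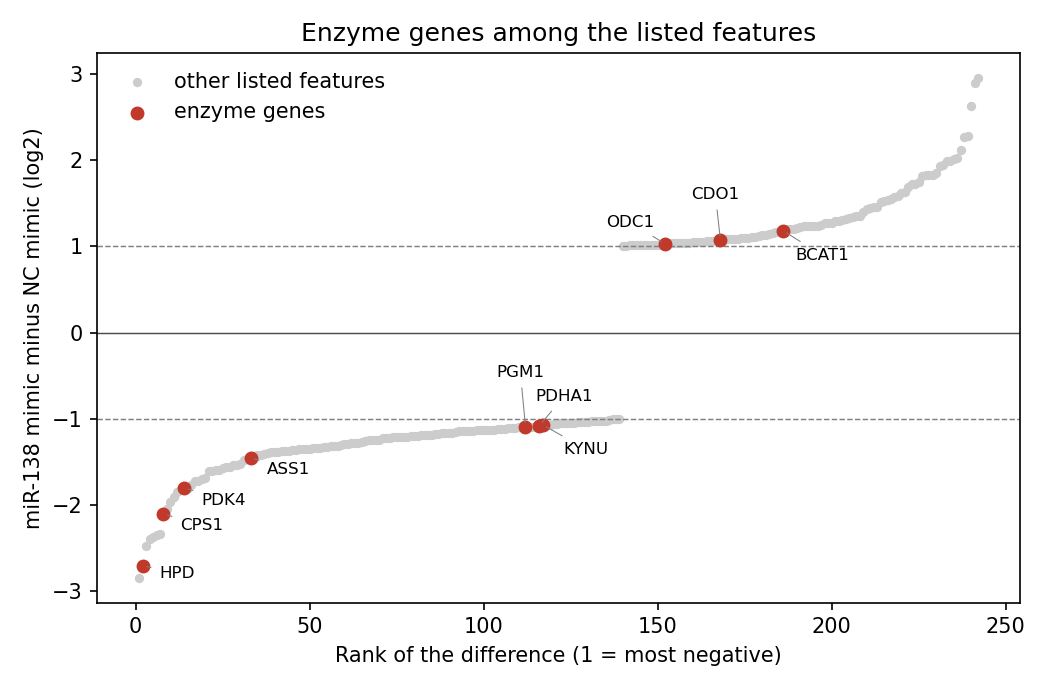
Difference of each cluster in the table (miR-138 mimic minus NC mimic, log2, vertical axis) by rank from the most negative (horizontal axis), with the 10 enzyme genes named and MIR138-1, at 7.94, left off the plot. HPD, CPS1 and PDK4 lie in the steep lower end and ASS1 further along, at rank 33. KYNU, PDHA1, PGM1, BCAT1, CDO1 and ODC1 have sizes of no more than 1.2, near the dashed lines at -1 and 1.

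The 10 differences fell into a wide and a narrow range. From the most negative of the 243, HPD ranked 2, CPS1 8, PDK4 14 and ASS1 33. PGM1, PDHA1 and KYNU ranked 112, 115 and 117. On the higher side, counted from the most positive, BCAT1 ranked 58, CDO1 75 and ODC1 91. HPD and CPS1 were lower by at least 2 (4-fold), which held for 3.70% of the table (9 clusters), and 0 of the 3 higher enzymes were higher by that much, which also held for 3.70% of the table (9 clusters). By distance over both log2 levels on the 2 arrays, a measure that sets different probes side by side, the single-gene clusters nearest to CPS1 were PRDX2, FDPS and SGK1, at 0.57 to 0.72. Those nearest to HPD were STEAP4, BACE2 and GALNT2, at 0.73 to 0.91. The differences of these 6 ran from -1.08 for SGK1 to -1.72 for STEAP4. The measure uses the same levels that gave the differences, so it compares nothing with the enzymes.

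The lower calls nearest to the limit depended on how the 2 arrays were scaled, while the 3 higher calls stayed under each centring. The table gives no account of the normalization between arrays, and only the listed clusters could be used to examine it. Every listed cluster differed by at least 1 and more were lower than higher. The shifts below therefore also carry that filter and that imbalance, and cannot measure an offset between the arrays. Median centring added 0.06 and kept the split at 7 to 3, beside 49.8% of the whole table lower and 42.8% higher. Centring both arrays on their 75th percentile added 0.22 to every difference, and centring on the mean without MIR138-1 added 0.19. KYNU, PDHA1 and PGM1 then differed by -0.86, -0.87 and -0.88 with the percentile and by -0.88, -0.89 and -0.90 with the mean, inside the limit. The split among calls became 4 lower (CPS1, ASS1, HPD and PDK4) to 3 higher under both, beside 30.0% and 33.3% of the whole table lower and 42.8% higher. Higher calls could not be gained, because clusters with a deposited difference under 1 were not in the table.

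**Figure D3:**
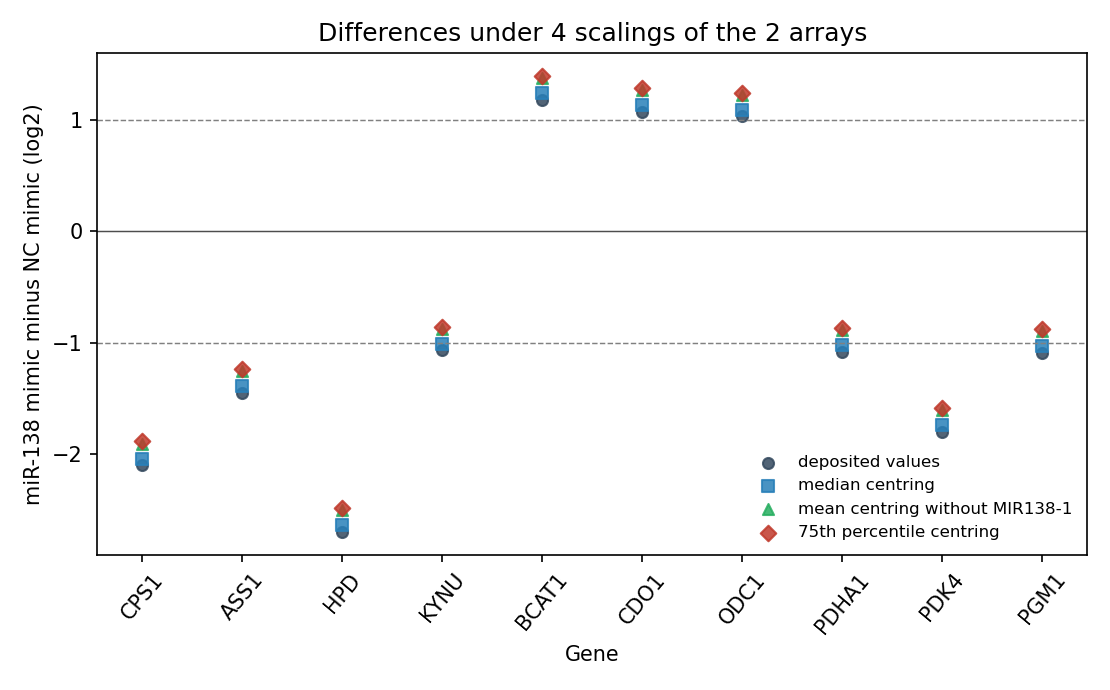
Difference of each enzyme gene (miR-138 mimic minus NC mimic, log2, vertical axis) under the deposited scaling and 3 other scalings of the 2 arrays, with dashed lines at the limit of the table. KYNU, PDHA1 and PGM1 move inside the lower line under mean and 75th percentile centring, and no gene crosses 0.

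Cell type could not be checked. CPS1 and HPD are best known from hepatocytes, and of 8 hepatocyte markers, including ALB, TTR and HNF4A, 0 were in the table. The same was true of 9 lung epithelial markers and 4 mesenchymal carcinoma markers. Those genes were not analysed here. With bulk RNA, fewer cells expressing a gene and less RNA per cell cannot be told apart, and chance differences between the cultures and effects of the mimic cannot be told apart.

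The promoters of the 10 genes were read to show the DNA around their transcription starts. RefSeq's table (GRCh38.p14) gave windows of 300 bases, 250 before and 50 from the start, and 21 windows for the 10 genes. KYNU, CDO1, PDHA1 and PDK4 had 1 window each. These 4 are shown because their start is not in doubt in that table, with both windows of HPD, the enzyme with the largest difference. The capitals mark exact matches on either strand to TATAAA (the TATA box), to CCAAT, to the GC box GGGCGG, to the E-box motif CACGTG and to TGACG (a part of the cyclic AMP response element).
HPD, window 1, chr12:121858810-121859109, minus strand: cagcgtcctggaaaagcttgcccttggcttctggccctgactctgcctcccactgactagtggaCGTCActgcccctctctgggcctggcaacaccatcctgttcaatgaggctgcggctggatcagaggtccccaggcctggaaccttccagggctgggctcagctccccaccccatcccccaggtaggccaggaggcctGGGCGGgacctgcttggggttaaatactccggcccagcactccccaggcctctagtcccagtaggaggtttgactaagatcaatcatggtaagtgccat
HPD, window 2, chr12:121888562-121888861, minus strand: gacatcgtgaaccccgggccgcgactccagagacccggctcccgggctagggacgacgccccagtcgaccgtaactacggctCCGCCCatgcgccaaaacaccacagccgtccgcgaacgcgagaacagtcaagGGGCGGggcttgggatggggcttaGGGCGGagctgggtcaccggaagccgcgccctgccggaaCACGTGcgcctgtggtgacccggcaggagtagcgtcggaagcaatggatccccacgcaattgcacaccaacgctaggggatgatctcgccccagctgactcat
KYNU, chr2:142877414-142877713, plus strand: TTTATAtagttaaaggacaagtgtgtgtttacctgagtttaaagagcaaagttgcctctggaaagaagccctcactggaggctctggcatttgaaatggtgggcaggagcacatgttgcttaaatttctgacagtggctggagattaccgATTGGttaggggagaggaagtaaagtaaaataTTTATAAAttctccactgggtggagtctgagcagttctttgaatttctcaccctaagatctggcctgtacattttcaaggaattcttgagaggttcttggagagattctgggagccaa
CDO1, chr5:115816610-115816909, minus strand: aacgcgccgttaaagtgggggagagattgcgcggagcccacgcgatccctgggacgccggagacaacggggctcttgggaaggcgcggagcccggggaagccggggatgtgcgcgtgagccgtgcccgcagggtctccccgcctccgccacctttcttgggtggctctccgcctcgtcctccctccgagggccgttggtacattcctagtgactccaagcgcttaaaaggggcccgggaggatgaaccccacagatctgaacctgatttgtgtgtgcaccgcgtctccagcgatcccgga
PDHA1, chrX:19343677-19343976, plus strand: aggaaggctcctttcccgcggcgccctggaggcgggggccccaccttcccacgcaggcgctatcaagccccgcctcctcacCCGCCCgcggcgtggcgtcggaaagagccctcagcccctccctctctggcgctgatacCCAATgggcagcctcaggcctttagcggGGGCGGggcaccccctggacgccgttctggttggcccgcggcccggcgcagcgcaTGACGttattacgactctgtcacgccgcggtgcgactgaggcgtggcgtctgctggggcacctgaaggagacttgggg
PDK4, chr7:95596467-95596766, minus strand: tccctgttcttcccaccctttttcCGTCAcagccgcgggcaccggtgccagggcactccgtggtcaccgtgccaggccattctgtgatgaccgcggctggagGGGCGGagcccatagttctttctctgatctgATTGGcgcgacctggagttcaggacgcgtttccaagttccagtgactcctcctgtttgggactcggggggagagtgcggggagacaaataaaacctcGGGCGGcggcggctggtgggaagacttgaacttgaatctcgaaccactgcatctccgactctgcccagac

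These letters differed widely between genes of 1 direction. KYNU had 42.3% G and C, 1 CpG and 3 TATAAA matches, the pair at -68 and -66 from the start overlapping, and 0 GC boxes. PDHA1 and PDK4, which were lower as well, had 71.0% and 60.7% G and C, 2 GC boxes, 1 CCAAT and 1 TGACG each, and no TATAAA. CDO1, which was higher, had 66.0% G and C, 30 CpG and none of the 5 motifs. The windows of HPD had 1 GC box and 1 TGACG in the first, with 5 CpG, and 3 GC boxes and 1 CACGTG in the second, with 32 CpG. Which start H1299 cells use was not measured.

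Over the 21 windows the median G and C content was 66.0%, beside 58.7% over all 35116 windows of the table. Of the 21, 11 held a GC box (45.0% of all windows), 6 a CCAAT (34.6%), 6 a TGACG (24.6%), 3 a TATAAA (11.5%) and 5 a CACGTG (7.26%). The CACGTG windows were 1 each of CPS1, ASS1 and HPD, which were lower, and of BCAT1 and ODC1, which were higher. The motif therefore stood in windows of genes of both directions. Windows of a gene can overlap and genes with several windows count more often, so these shares are a description of letters and not of binding, which was not measured.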

How the data were processed

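Per the labels, total RNA of H1299 cells at 70% confluence in medium with 10% serum, transfected with a miR-138 or an NC mimic for 48 h, was hybridised to an Affymetrix human transcriptome array. The deposited values are log2 signals, 1 column per array, made with Affymetrix Expression Console per the submitters' processing notes. The version, summarisation, normalization and filter were not given in the sources used here. A base of 2 was inferred for the logarithm: the highest value would be 17199 as log2 and 1289803 as a natural logarithm, against a 16-bit scanner maximum of 65535.

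Clusters were named by the platform's annotation (220 with 1 gene, 10 with several, 13 unnamed here), and 10 of 10 members matched RefSeq's gene table by gene ID. Both levels, the difference, its rank and list counts were computed with Python 3.11.15, NumPy 2.4.6 and pandas 2.3.3, and plots were drawn with Matplotlib 3.10.9. On a simulated table, subtracting the 2 columns and a known offset returned the differences put in, which that arithmetic ensures. The ranks, lists and centrings were not checked in that way. With 1 array per group no test of any difference was possible, and the number of arrays limits the precision. The members, gene lists, motifs and alternatives were chosen with earlier results of these data known. All 10 members were named, with listed genes in the table, the 3 clusters nearest to CPS1 and to HPD, and MIR138-1. Alternatives were 3 centrings, leaving out the lowest 25% of mean levels, and log2 limits of 1.2 and 2.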

Additional observations from a re-analysis of the deposited data

How the results depend on the processing

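No paired analysis was possible because each mimic had a single array, and for the same reason no replicate could be left out. Of the 10 genes, 0 changed direction under the 3 centrings, whose shifts of 0.06 to 0.22 were too small to turn any difference of 1.0 or more. The median difference of the 10 became -1.03 with median centring, -0.87 with 75th percentile centring and -0.89 with mean centring. The number lower by at least 1 stayed 7 with median centring and became 4 with either of the other centrings, while 3 stayed higher in each. A log2 limit of 1.2 left 4 lower and 0 higher, beside 33.3% and 23.5% of the table, and a limit of 2 left 2 lower and 0 higher, beside 3.70% of the table on either side. Without the lowest 25% of mean levels, which removed PDK4 and CDO1, 6 were lower and 2 higher, beside 62.1% and 37.9% of the 182 clusters left, with a median of -1.09.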

Other observations

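Some other metabolic genes in the table were picked after their values were seen, so they show no direction of their kind. PGP, a phosphatase of phosphoglycolate, differed by -1.11 (8.12 on the miR-138 array against 9.23 on the NC array). IMPA2, an inositol monophosphatase, differed by -1.27 (8.93 against 10.20), and CTPS2, a CTP synthase that uses glutamine, by -1.20 (6.57 against 7.77). DNAJC12, a co-chaperone of the aromatic amino acid hydroxylases, differed by -1.34 (5.22 against 6.56). MTARC2, a mitochondrial reductase, differed by -1.10 (6.33 against 7.43). UPP1, a uridine phosphorylase, was higher by 1.27 (9.31 against 8.04).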
